A study of Mus musculus with 6 samples.

Results

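Rab GTPases are small proteins that mark the membranes of a cell and decide which vesicle fuses where. Each one cycles between a GTP-bound form, switched on by exchange factors, and a GDP-bound form, restored by GTPase-activating proteins (GAPs). A lipid tail added by Rab geranylgeranyl transferase holds it on the membrane, and GDP dissociation inhibitors take it off again. In the testis, this traffic serves the spermatid, which builds its acrosome (the enzyme sac at the tip of the sperm head) from Golgi vesicles, and the Sertoli cell, which secretes and engulfs material around the germ cells. The Rab genes were chosen by symbol alone, as Rab followed by a number with or without a letter, with no use of measured values. The annotation held 59 such symbols and the expression table listed transcripts of 40 of them, among 14000 genes in all. The other 19, among them Rab27b, Rab25, Rab32 and Rab38, were not analysed here.

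Testicular polyadenylated RNA of 6 wild-type C57BL/6N males was sequenced, 3 in each of 2 groups, and the comparison asks how a second paternal generation on a high-fat diet (HFD) bears on offspring that took in cadmium. The H+Cd males (HFD1D in the study) were the F1 sons of F0 fathers fed HFD from week 5 to week 15 of life and mated with normal females. The H+H+Cd males (HFD2D in the study) were F2 animals whose paternal grandfathers and fathers had both been fed HFD. All 6 received CdCl2, a testicular toxicant, in the drinking water for 10 weeks and were killed at 15 weeks of age. One male was kept from each litter, so the libraries of a group are from separate mice. Both groups carry cadmium and a paternal HFD, the groups without them were not analysed here, and the number of diet generations cannot be told apart from the filial generation.

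Values are FPKM (fragments mapped to a transcript, relative to its length and to the mapped total of the library), summed per gene over its listed transcripts. The summed FPKM per library lay between 382815 and 397147 and 24374 to 25372 of 27120 transcripts were above 0. The read depth is unknown. The tissue label was checked with testis genes: Prm2, a sperm protamine, had 3301 to 5022 FPKM and Sycp3, of the meiotic chromosome axis, 172 to 243 FPKM. One library stood apart. The summed FPKM of the 4 epididymal genes in the table (of 8 listed) was 122.1 in H+H+Cd replicate 1 and 3.50 to 4.08 in the other 5 libraries, and that of 11 placental genes (of 13 listed) 199.0 against 7.03 to 27.1. In this library Crisp1, an epididymal sperm-coat protein, was at 86.1 FPKM and Adam7 at 8.03, while Adam7 was listed at 0 in the other 5. The Rab genes of smallest p are therefore also given without it. In whole testis, fewer cells of a type and less RNA per cell cannot be told apart.

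The sequences that carry the isoform results are coding exons of Rab2b, Rab6a and Rab28, read from the GENCODE M21 transcripts (build mm10) and written in the sense of the gene. Rab2b (chr14:52261759-52279545, minus strand) had a listed 8-exon transcript, ENSMUST00000022765.13, and a listed 7-exon transcript, ENSMUST00000100631.10. Their coding sequences differ by exon 7 of the former (chr14:52264699-52264767, minus strand), whose 69 bases are 23 codons and leave the frame intact, so that the coding sequence is 648 or 579 bases without the stop codon. The exon is shown first, then the 15 bases on each side of the junction after exon 6 in each transcript, with the bases after the junction in capitals.
Rab2b exon 7: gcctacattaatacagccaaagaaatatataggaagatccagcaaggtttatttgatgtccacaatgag
Rab2b junction with exon 7: tgcaatgttgaagagGCCTACATTAATACA
Rab2b junction without exon 7: tgcaatgttgaagagGCAAATGGCATCAAG

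Rab6a (chr7:100607410-100641268, plus strand) is known for a pair of forms made from alternative copies of 1 exon. The listed transcripts ENSMUST00000032946.9 and ENSMUST00000098252.4 each have 8 exons and a coding sequence of 624 bases, and differ in their exon 4, taken from chr7:100629838-100629943 in the former and from chr7:100629666-100629771 in the latter. Both copies have 106 bases and are 71.7% identical. The 30 bases that differ are in capitals.
Rab6a exon 4 of ENSMUST00000032946.9: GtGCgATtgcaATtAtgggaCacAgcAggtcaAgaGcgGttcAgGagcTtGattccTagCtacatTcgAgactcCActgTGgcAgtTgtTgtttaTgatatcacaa
Rab6a exon 4 of ENSMUST00000098252.4: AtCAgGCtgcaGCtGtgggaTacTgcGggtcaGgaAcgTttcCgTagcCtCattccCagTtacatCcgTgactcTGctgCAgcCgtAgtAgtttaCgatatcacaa

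Rab28 (chr5:41624976-41708157, minus strand) had 3 listed transcripts. ENSMUST00000201422.3 has 8 exons, and its exon 7 (chr5:41626987-41627081, minus strand) is the last coding exon and is absent from ENSMUST00000031011.11, which has 7 exons. The coding sequence is 660 bases with it and 663 bases without it, so the end of the protein is encoded by different bases. Its 87 coding bases are shown.
Rab28 exon 7, coding part: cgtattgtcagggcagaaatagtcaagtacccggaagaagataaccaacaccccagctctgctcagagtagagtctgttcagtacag

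All 40 Rab genes passed the filter on low values (a mean above 0.5 FPKM in at least 1 group). The median of their mean levels was 7.05 FPKM, beside 6.45 FPKM over all 13769 tested genes. A mean of at least 10 FPKM was reached by 15 Rab genes, 23 lay from 1 to under 10 FPKM, and Rab6b and Rab27a had 0.768 and 0.647 FPKM. Rab27a passed the filter only through H+H+Cd. Together the Rab genes made up 0.108% to 0.125% of the summed FPKM of a library. Rab2a alone held 13.6% to 17.1% of the Rab total.

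**Figure D1:**
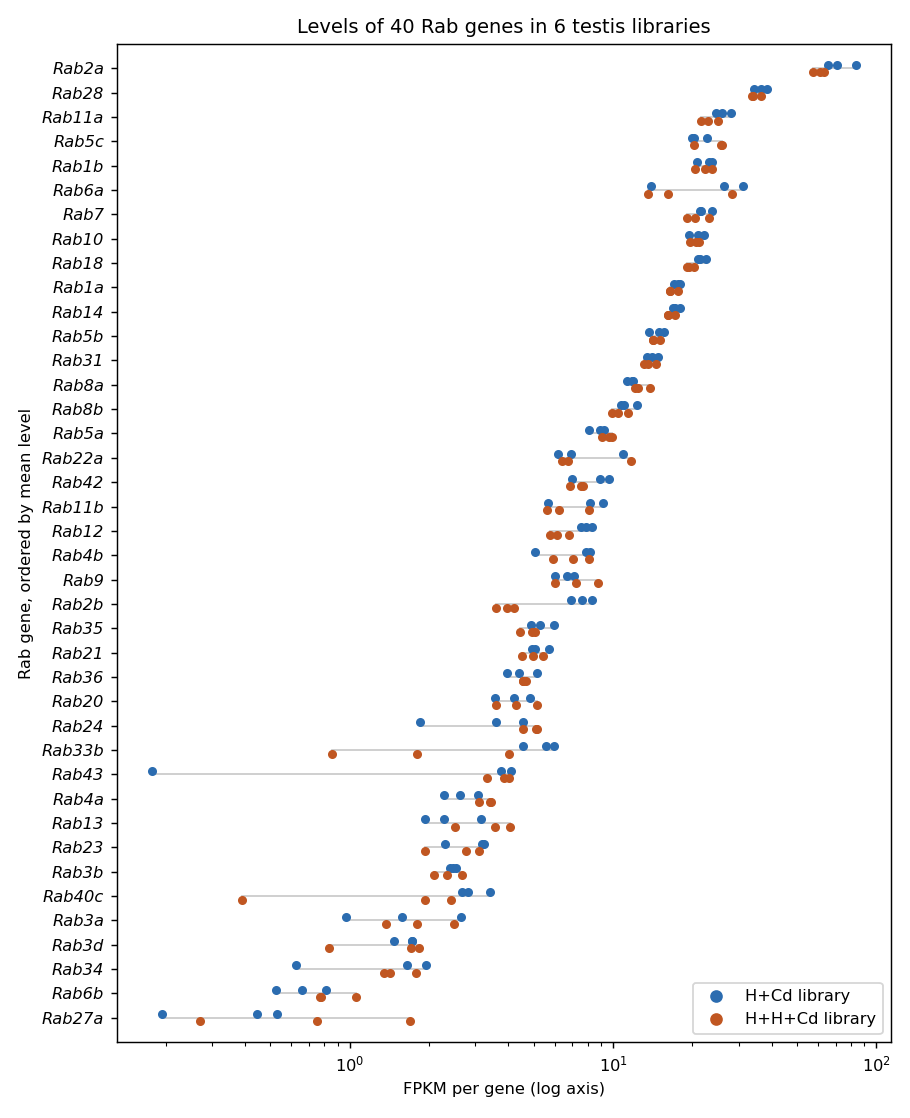
FPKM of each of the 40 Rab genes (log axis) in each of the 6 libraries, with genes in order of their mean over all libraries and a grey line from the lowest to the highest library. Rab2a is highest in all 6 libraries, the blue (H+Cd) and orange (H+H+Cd) points of Rab2b are apart, and Rab43 has 1 low H+Cd library at 0.177 FPKM.

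Rab2a (chr4:8535644-8607778, plus strand), which acts between the endoplasmic reticulum (ER) and the Golgi, was the most abundant Rab gene at a mean of 66.9 FPKM. Its lowest library was above the highest library of every other Rab gene. Next came Rab28, a Rab of cilia and photoreceptor outer segments, at 36.4, 34.3 and 38.6 FPKM in H+Cd and 36.5, 33.8 and 34.1 FPKM in H+H+Cd. Rab11a, the Rab of the recycling endosome, had 24.6, 26.0 and 28.0 FPKM in H+Cd and 25.0, 21.6 and 23.0 FPKM in H+H+Cd. For both genes the groups overlapped.

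Rab5c, which drives fusion of early endosomes, had 22.8, 19.96 and 20.3 FPKM in H+Cd and 25.7, 20.4 and 25.9 FPKM in H+H+Cd. Rab1b, of the ER to Golgi step, had 23.0, 20.8 and 23.8 FPKM in H+Cd and 22.4, 23.7 and 20.5 FPKM in H+H+Cd. Rab6a, of traffic within and out of the Golgi, had 31.2, 13.9 and 26.3 FPKM in H+Cd and 13.6, 28.2 and 16.2 FPKM in H+H+Cd. The groups overlapped for all 3, and Rab6a was the only one of the 15 Rab genes at 10 FPKM or more whose highest library was over 2 times its lowest.

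Rab28 was in turn above every library of Rab11a. Further down the order most neighbours overlapped, and over the 6 libraries the ranges of neighbouring genes were separate at only 3 more places, between Rab18 and Rab1a, between Rab14 and Rab5b, and between Rab8b and Rab5a. In 8 genes (Rab1a, Rab1b, Rab5b, Rab10, Rab14, Rab18, Rab28 and Rab31) the highest library was under 1.2 times the lowest. In 12 genes it was over 2 times the lowest, most of all in Rab43, a Golgi Rab, with 0.177 FPKM in H+Cd replicate 2 and 3.33 to 4.09 FPKM in the other 5 libraries.

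Between the groups, 0 of the 40 Rab genes passed the threshold of an adjusted p of 0.05 in limma, where 0.00726% of all tested genes did (1 gene). Their adjusted p ranged from 0.189 to 0.989. An unadjusted p under 0.05 was reached by 4 Rab genes, Rab2b, Rab12, Rab33b and Rab2a, all lower in H+H+Cd and 0 higher, beside 11.9% of all tested genes in either direction, 6.59% lower and 5.31% higher. At the screening thresholds of the study (F-test, unadjusted p under 0.05 and a fold above 1.2) the count was 2. These were Rab2b and Rab12, both lower, beside 4.82% of all tested genes in either direction and 2.51% lower. The F-test and the fold were taken here on log2(FPKM + 1), whereas the study used Ballgown. The groups did not overlap for 9 of 40 Rab genes (22.5%), beside 19.4% of all tested genes. Of these 9, 6 were lower in H+H+Cd (Rab2b, Rab12, Rab33b, Rab2a, Rab18 and Rab40c) and 3 higher (Rab4a, Rab24 and Rab8a), beside 11.0% and 8.34% of all tested genes. In all, 24 Rab genes had a lower and 16 a higher mean log2 value in H+H+Cd (60.0% lower, beside 49.8% of all tested genes). The median log2 fold change was −0.04, beside 0.0007 over all tested genes, and it was −0.02 without H+H+Cd replicate 3 and −0.07 without H+Cd replicate 2. The shares of Rab genes with an unadjusted p under 0.05 and without overlap were near those of all tested genes. Without H+Cd replicate 1 the number without overlap was 17, where 37.2% of all tested genes did not overlap, and without H+H+Cd replicate 1 it was 13, where 28.3% of all tested genes did not overlap.

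**Figure D2:**
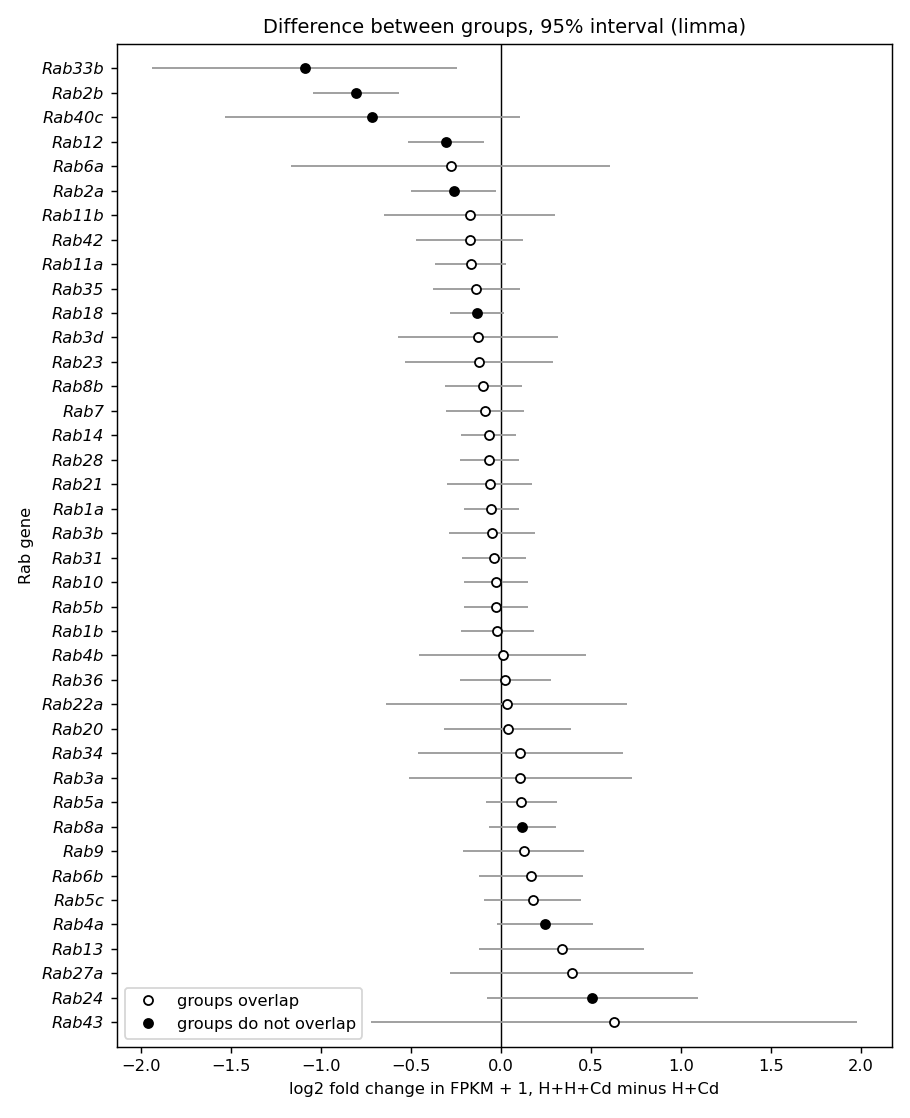
Log2 fold change of FPKM + 1 (H+H+Cd minus H+Cd) for the 40 Rab genes, with the 95% confidence interval from limma as a bar and filled points where the 3 libraries of one group are all above or all below the 3 of the other. Rab33b, Rab2b, Rab12 and Rab2a have intervals wholly below 0, no interval lies wholly above 0, and no gene passed the adjusted threshold.

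Rab2b, the paralog of Rab2a at the Golgi, had the smallest p of the Rab genes. It measured 8.31, 6.90 and 7.59 FPKM in H+Cd and 3.95, 4.22 and 3.58 FPKM in H+H+Cd. Each H+H+Cd library was thus well below each H+Cd library. The means were 7.60 ± 0.704 and 3.92 ± 0.322 FPKM (SD, n = 3), a ratio of 1.94. The log2 fold change was −0.81 (SE 0.10, 95% interval −1.05 to −0.56), with a limma adjusted p of 0.189, and without H+H+Cd replicate 1 it was −0.81 with an adjusted p of 0.336. The difference in Rab2b is larger than the spread within either group but does not pass the adjustment over all genes.

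Rab2a measured 65.4, 71.1 and 83.4 FPKM in H+Cd and 60.9, 63.3 and 57.6 FPKM in H+H+Cd. The groups did not overlap, although the nearest pair was close. The means were 73.3 ± 9.18 and 60.6 ± 2.89 FPKM (SD, n = 3), with a log2 fold change of −0.26 (SE 0.10, 95% interval −0.50 to −0.03) and a limma adjusted p of 0.396, and without H+H+Cd replicate 1 it was −0.27 with an adjusted p of 0.609. It was −0.17 without H+Cd replicate 3, the highest library, and −0.34 without H+Cd replicate 1. Both Rab2 genes thus had lower values in all H+H+Cd libraries, Rab2b by more. The ratio of Rab2a to Rab2b was 7.87, 10.3 and 11.0 in H+Cd and 15.4, 15.0 and 16.1 in H+H+Cd. On the log2 scale of FPKM + 1 this ratio differed by 0.54 (H+H+Cd minus H+Cd). The exact two-sided permutation test gave p = 0.1, the smallest that 20 assignments of 6 libraries allow, and 0.65 after adjustment over 13 pairs.

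The listed Rab2b transcripts had values in opposite directions. The 8-exon transcript had 8.31, 6.90 and 7.59 FPKM in H+Cd and 2.99, 2.59 and 2.58 FPKM in H+H+Cd, so its groups were far apart. Its log2 fold change was −1.21 (SE 0.12, 95% interval −1.50 to −0.91), with a limma adjusted p of 0.0573 over 25322 tested transcripts. This is just outside the threshold of 0.05, and the transcript passed under 4 of the 14 other settings tried (adjusted p of 0.0432 to 0.0494) and did not pass under 10 (0.0517 to 0.568). Without H+H+Cd replicate 1 the log2 fold change was −1.26 with an adjusted p of 0.118. The 7-exon transcript, which skips the exon printed above, was listed at 0 in all 3 H+Cd libraries and at 0.959, 1.63 and 0.994 FPKM in H+H+Cd, and it passed the filter on low values only through H+H+Cd. It made up 24.3%, 38.7% and 27.8% of the Rab2b sum in H+H+Cd. An exact 0 in a table without counts can be a failed estimate, so no fold is given for the 7-exon transcript. Through these listed 0 values, the 8-exon values of H+Cd equal the whole Rab2b sum. The log2 fold change and adjusted p of the 8-exon transcript thus rest on the same split. For the sum of both transcripts the log2 fold change was −0.81 (limma adjusted p = 0.189).

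**Figure D3:**
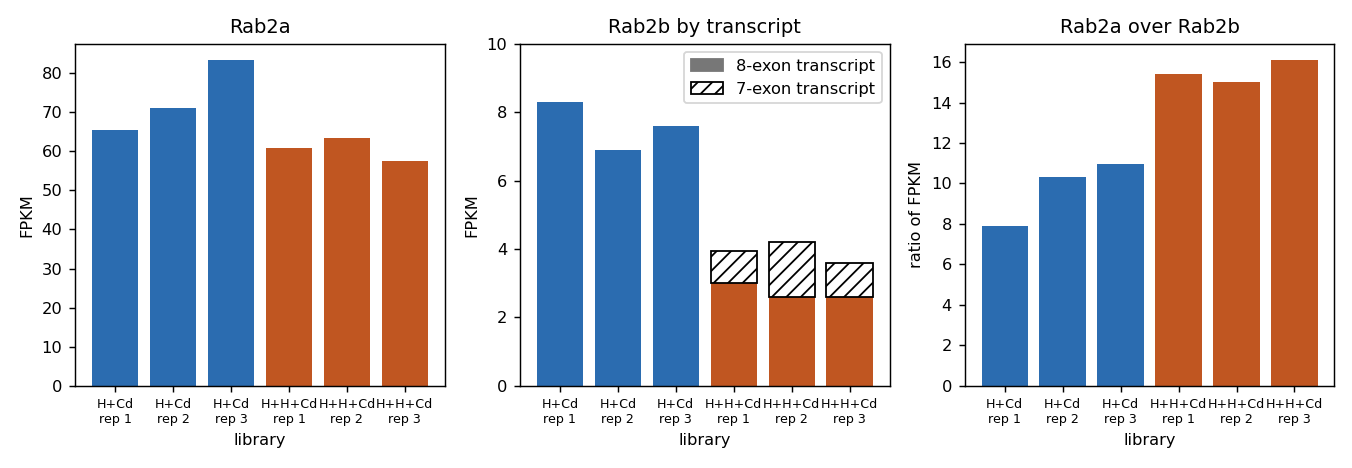
FPKM of Rab2a (left), FPKM of Rab2b stacked by its 2 listed transcripts (middle, 7-exon transcript hatched) and the ratio of Rab2a to Rab2b in FPKM (right), 1 bar per library, blue for H+Cd and orange for H+H+Cd. The Rab2b bars reach 6.90 to 8.31 in H+Cd and 3.58 to 4.22 in H+H+Cd, the hatched part appears in H+H+Cd alone, and the ratio is 7.87 to 11.0 against 15.0 to 16.1.

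The marker genes of the cell types of the testis were set beside these Rab2 values, where 19.4% of all tested genes did not overlap between groups. The summed FPKM of 7 spermatocyte markers was 773 to 832 in H+Cd and 709 to 749 in H+H+Cd, and that of 6 spermatogonial markers (of 7 listed) 93.1 to 100.2 and 85.8 to 88.9. The groups did not overlap for 4 genes of each of these lists. The 8 Sertoli cell markers summed to 374 to 381 and 341 to 377 FPKM, and of these genes 6 had a lower mean log2 value in H+H+Cd, the groups did not overlap for 6, and the median log2 fold change was −0.17. The 7 macrophage markers summed to 22.6 to 26.8 and 26.4 to 33.3 FPKM, and 6 of them were on the higher side in H+H+Cd (median log2 fold change 0.36), and the groups did not overlap for 1 of the 7. The 8 spermatid markers summed to 11324 to 16586 and 13165 to 14044 FPKM, with 7 on the lower side (median −0.09) and 2 without overlap, and the H+H+Cd sums lay within the H+Cd range. The 4 endothelial markers (of 5 listed) summed to 3.09 to 3.90 and 3.91 to 4.08 FPKM, with 3 on the higher side and 1 without overlap. Also on the higher side were 5 of 7 Leydig cell markers (median log2 fold change 0.23), 6 of 6 peritubular myoid markers (0.21) and 4 of 5 red blood cell markers (0.30), and of these lists the groups did not overlap for 2 peritubular markers, beside 8.34% of all tested genes that did not overlap in this direction. No marker of these lists that the table holds was listed at 0 in any library. Their part in the Rab differences was not tested. On the opposite strand, the gene Tox4 overlaps the Rab2b gene over 400 bases, and it had mean values of 19.5 FPKM in H+Cd and 18.4 FPKM in H+H+Cd (limma adjusted p = 0.601). Rab3a, Rab5a, Rab6a and Rab24 each overlap a gene of the table on the opposite strand as well. Prelid1 overlaps Rab24 over 1447 bases, and had means of 6.01 FPKM in H+Cd and 4.52 FPKM in H+H+Cd (log2 fold change −0.35, limma adjusted p = 0.390). The log2 fold changes of the others were −0.35 for Mpv17l2 (Rab3a), 0.14 for Pp2d1 (Rab5a) and 0.15 for Mrpl48 (Rab6a). The part of these genes in the Rab values was not tested.

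Seen by role, the Rabs of the ER and Golgi were the largest class, with 10 genes and 37.0% of the Rab FPKM. Their summed FPKM was 182.0, 161.2 and 195.6 in H+Cd and 146.4, 168.7 and 146.9 in H+H+Cd, and the groups overlapped. Of the 10 genes, 7 had a lower mean log2 value in H+H+Cd, and the groups did not overlap for 4 of them, all lower: Rab2a, Rab2b, Rab33b and Rab18. The count of 4 of 10 stands beside 11.0% of all genes that did not overlap in this direction.

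Rab33b, a Golgi Rab that also serves autophagy, measured 5.96, 5.56 and 4.55 FPKM in H+Cd and 0.859, 1.80 and 4.03 FPKM in H+H+Cd. Replicates 1 and 2 of H+H+Cd were far below H+Cd, while replicate 3 was close to it. The means were 5.36 ± 0.725 and 2.23 ± 1.63 FPKM (SD, n = 3) and the log2 fold change −1.09 (SE 0.35, 95% interval −1.94 to −0.24, limma adjusted p = 0.378). Without H+H+Cd replicate 1 it was −0.75 with an adjusted p of 0.609. Rab18, which acts at the ER and lipid droplets, differed little, at 20.99 to 22.6 FPKM in H+Cd and 19.1 to 20.3 FPKM in H+H+Cd. Rab1a and Rab1b, the Rabs of the first step out of the ER, had log2 fold changes of −0.05 (95% interval −0.21 to 0.10) and −0.02 (−0.22 to 0.18).

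Of the 4 Rabs of the late endosome and lysosome, Rab12, which directs cargo from recycling endosomes to the lysosome, did not overlap between groups. It measured 7.54, 8.29 and 7.86 FPKM in H+Cd and 6.78, 6.13 and 5.75 FPKM in H+H+Cd. The means were 7.90 ± 0.376 and 6.22 ± 0.521 FPKM (SD, n = 3), with a log2 fold change of −0.30 (SE 0.09, 95% interval −0.51 to −0.09, limma adjusted p = 0.358). Without H+H+Cd replicate 1 the log2 fold change was −0.36 (limma adjusted p = 0.609). Rab7, the Rab of late endosome to lysosome traffic, had 19.0 to 23.7 FPKM over all libraries, with overlap. Rab9 and Rab42 overlapped too.

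Of the 8 early endosome Rabs 1 did not overlap, beside 19.4% of all tested genes. This was Rab24, an autophagy Rab, with 4.54, 1.85 and 3.58 FPKM in H+Cd and 5.08, 5.14 and 4.56 FPKM in H+H+Cd (limma adjusted p = 0.458). The groups nearly met. Of the 6 recycling Rabs, Rab4a, which returns receptors quickly to the surface, had 2.28 to 3.07 FPKM in H+Cd and 3.09 to 3.44 FPKM in H+H+Cd (adjusted p = 0.445). Of the 8 Rabs of secretion and surface delivery, Rab8a had 11.3 to 11.9 FPKM and 12.1 to 13.8 FPKM (adjusted p = 0.567). These 3 genes, higher in every H+H+Cd library, had small gaps between groups. The main transcripts of Rab4a (ENSMUST00000118535.7, means of 2.28 and 2.18 FPKM) and Rab24 (ENSMUST00000035242.8, 3.21 and 4.38 FPKM) overlapped between groups. The sums of both genes were separate only with a minor transcript. These were ENSMUST00000117702.1 of Rab4a (0.381 and 1.14 FPKM) and ENSMUST00000224685.1 of Rab24 (0.109 and 0.545 FPKM). Both had an H+Cd mean under 0.5 FPKM and entered the test only through H+H+Cd.

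The secretory Rab3 genes, of which Rab3a takes part in the acrosome reaction of mouse sperm, were at 0.833 to 2.66 FPKM over all libraries for Rab3a, Rab3b and Rab3d, and the groups overlapped for each. The 3 Rabs of cilia, Rab23, Rab28 and Rab34, overlapped as well. Rab40c, an atypical Rab with a SOCS box that joins a ubiquitin ligase, had 2.66 to 3.42 FPKM in H+Cd and 1.94, 0.389 and 2.42 FPKM in H+H+Cd (log2 fold change −0.71, 95% interval −1.53 to 0.10, limma adjusted p = 0.455). Without H+H+Cd replicate 2 the log2 fold change was −0.32. The main Rab40c transcript, ENSMUST00000167626.7, overlapped, at 2.81, 1.40 and 2.66 FPKM in H+Cd and 1.94, 0.389 and 2.42 FPKM in H+H+Cd. The Rab40c sum was separate only with ENSMUST00000026826.13, listed at 2.02 FPKM in H+Cd replicate 2 and at 0 in all other libraries.

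Of 23 listed pairs of paralogs, 13 had both genes in the table, with coding sequences 66.9% to 78.4% identical. Rab2a and Rab2b shared 75.6% of aligned coding bases (481 of 636), and their longest identical run was 26 bases, shorter than a sequenced read. In 11 of the 13 pairs the same member was higher in all 6 libraries, among them Rab1b over Rab1a, Rab11a over Rab11b, Rab5c over Rab5b over Rab5a, Rab4b over Rab4a, Rab6a over Rab6b and Rab10 over Rab13. The exceptions were Rab3a with Rab3d and Rab8a with Rab8b. The ratio did not overlap between groups for 2 of 13 pairs, beside 19.4% of single genes tested, and other gene pairs were not counted. The 2 pairs were Rab2a with Rab2b, and Rab5a with Rab5b. The latter had ratios of 0.594, 0.588 and 0.593 in H+Cd and 0.696, 0.641 and 0.639 in H+H+Cd. Rab5a had 9.23, 8.08 and 8.89 FPKM in H+Cd and 9.90, 9.63 and 9.05 FPKM in H+H+Cd. Rab5b had 15.5, 13.7 and 15.0 FPKM in H+Cd and 14.2, 15.0 and 14.1 FPKM in H+H+Cd. Each gene overlapped between groups, and their log2 ratio differed by 0.14 (exact permutation p = 0.1, adjusted 0.65). With 3 libraries against 3 the test could not reach 0.05 for any pair.

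At the transcript level 72 Rab transcripts were listed of 187 annotated for these 40 genes, from 1 (16 genes) to 6 (Rab7), and 65 were tested. In limma 0 passed the adjusted threshold, beside 0.13% of all tested transcripts, and 8 had an unadjusted p under 0.05, beside 8.24%. Of these, 4 were lower in H+H+Cd, beside 4.31%, and 4 higher, beside 3.93%. At the thresholds of the study there were 3, 1 lower and 2 higher, beside 5.2% in either direction and 2.63% lower. Of the 4 higher transcripts, the 7-exon Rab2b transcript, ENSMUST00000224685.1 of Rab24 and ENSMUST00000113597.7 of Rab7 had an H+Cd mean under 0.5 FPKM. They entered the test only through the group in which they are high, and both transcripts that were higher at the thresholds of the study are among them, so nothing is read from the counts of higher transcripts. The groups did not overlap for 11 transcripts (16.9%), beside 15.9%, with 6 lower and 5 higher, beside 8.62% and 7.29%. The log2 fold change was below 0 for 36 of the 65 (55.4%), beside 49.4%. The lowest adjusted p was that of the 8-exon Rab2b transcript.

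The Rab6a sum varied through its main transcript. ENSMUST00000032946.9 had 29.2, 12.0 and 24.6 FPKM in H+Cd and 9.65, 26.2 and 11.5 FPKM in H+H+Cd. The values of 3 libraries were high and of 3 low, and neither set is a group. ENSMUST00000098252.4, with the other exon 4 printed above, had 2.01, 1.88 and 1.66 FPKM in H+Cd and 3.91, 1.99 and 4.61 FPKM in H+H+Cd (limma adjusted p = 0.600). Its share of the Rab6a sum was 6.44%, 13.5% and 6.31% in H+Cd and 28.8%, 7.04% and 28.5% in H+H+Cd. The highest shares were those of H+H+Cd replicates 1 and 3, while replicate 2 resembled H+Cd.

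The Rab28 sum varied little between libraries, while its transcripts varied more. ENSMUST00000201422.3, with exon 7, had 20.3, 28.3 and 19.4 FPKM in H+Cd and 27.8, 17.8 and 28.3 FPKM in H+H+Cd. ENSMUST00000031011.11, without it, had 12.5, 4.86 and 14.6 FPKM in H+Cd and 6.55, 12.3 and 4.10 FPKM in H+H+Cd. ENSMUST00000202913.1 had 1.16 to 4.51 FPKM in H+Cd and 1.70 to 3.67 FPKM in H+H+Cd. The libraries low for ENSMUST00000031011.11 were H+Cd replicate 2 and H+H+Cd replicates 1 and 3, which were also the 3 low libraries of the main Rab6a transcript. Both groups hold libraries of each kind, so none of these transcripts separated the groups.

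**Figure D4:**
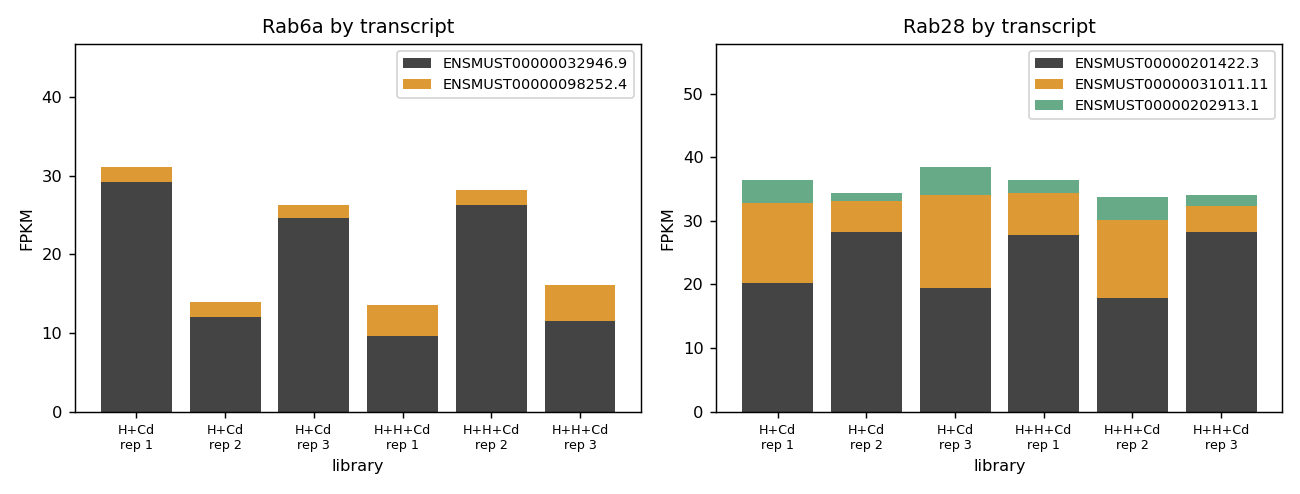
FPKM of the listed transcripts of Rab6a (left) and Rab28 (right), stacked within 1 bar per library and named by identifier, without the Rab6a transcript ENSMUST00000107048.7, at 0.0957 FPKM or less. Rab6a bars are low in H+Cd replicate 2 and H+H+Cd replicates 1 and 3, and in the same libraries the Rab28 transcript without exon 7 drawn in orange is at 4.10 to 6.55 FPKM against 12.3 to 14.6 FPKM in the others.

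A few more transcripts were uneven between libraries. The Rab7 transcript ENSMUST00000113597.7 had 0.315, 0.125 and 0.174 FPKM in H+Cd and 7.03, 5.87 and 0.398 FPKM in H+H+Cd, so replicates 1 and 2 of H+H+Cd carried the difference. The Rab11a transcript ENSMUST00000172298.7 had 24.2, 24.1 and 27.3 FPKM in H+Cd and 20.7, 20.7 and 22.4 FPKM in H+H+Cd, with no overlap (limma adjusted p = 0.600). The low Rab33b libraries lay in the transcript ENSMUST00000054387.7, with 4.97, 5.56 and 4.55 FPKM in H+Cd and 0.164, 0.740 and 4.03 FPKM in H+H+Cd. The other listed Rab33b transcript, the 397-base ENSMUST00000192172.1, had 0.990 FPKM or less in H+Cd and 0.696, 1.06 and 0 FPKM in H+H+Cd. It made up 81.0% and 59.0% of the Rab33b sum in H+H+Cd replicates 1 and 2, and 16.6% or less in H+Cd.

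Of 184 listed regulators, partners and effectors of Rabs, 159 were in the table and 157 were tested. In limma 0 passed the adjusted threshold, 18 had an unadjusted p under 0.05 (beside 11.9% of all tested genes), 11 lower and 7 higher in H+H+Cd (beside 6.59% and 5.31%), and the groups did not overlap for 29 (18.5%, beside 19.4% of all genes). Their median log2 fold change was 0.004.

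The Fam71 genes encode the GARIN proteins, Golgi-associated partners of Rab2, and the Fam71f1 product binds both Rab2 proteins and serves acrosome formation in the mouse. All 7 in the table were abundant, with a mean log2 value in H+H+Cd above that in H+Cd and a median log2 fold change of 0.26, beside 0.0007 over all tested genes. The groups did not overlap for 3, beside 8.34% of all tested genes that did not overlap in this direction, and the same 3 had an unadjusted p under 0.05, beside 5.31%. Fam71e2 had 137.1, 127.1 and 112.5 FPKM in H+Cd and 154.0, 151.0 and 164.7 FPKM in H+H+Cd (log2 fold change 0.32, SE 0.08, limma adjusted p = 0.358). Fam71d had 241.4, 228.9 and 203.4 FPKM in H+Cd and 269.1, 246.2 and 292.3 FPKM in H+H+Cd (adjusted p = 0.390). Fam71a had 47.6, 50.7 and 47.3 FPKM in H+Cd and 62.8, 53.5 and 53.8 FPKM in H+H+Cd (adjusted p = 0.396). Fam71e1 had 70.4 ± 10.0 and 87.6 ± 12.2 FPKM (SD, n = 3), with overlap. Fam71f1 had 180.6 ± 33.9 FPKM in H+Cd and 223.8 ± 19.5 FPKM in H+H+Cd (SD, n = 3), also with overlap (log2 fold change 0.32, limma adjusted p = 0.450). Fam71f2, the most abundant at 276.1 ± 29.6 and 276.9 ± 21.3 FPKM (SD, n = 3), had a log2 fold change of 0.01. The alternatives of filter, test, block and identifier version left the log2 fold changes of the Fam71 genes as they were, so they could not change a sign. With a pseudocount of 0.1, each scaling and each library left out, the log2 fold change was above 0 for 5 of the 7. It was −0.08 and −0.09 for Fam71b without H+Cd replicate 1 or H+H+Cd replicate 1, and −0.08 and −0.05 for Fam71f2 without H+Cd replicate 3 or H+H+Cd replicate 3. Of the 8 spermatid markers 7 had a lower mean log2 value in H+H+Cd (median log2 fold change −0.09), and their part in the Fam71 values was not tested. For the 5 Fam71 genes above 0 under all alternatives, the direction was opposite to that of Rab2a and Rab2b. None of these genes passed the adjusted threshold, and no relation between them was tested.

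**Figure D5:**
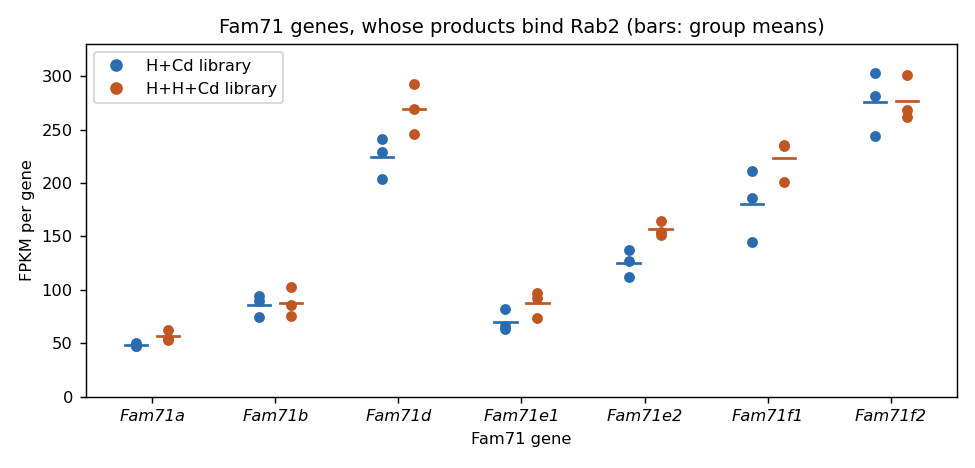
FPKM per gene of the 7 Fam71 genes of the table, 1 point per library, blue for H+Cd and orange for H+H+Cd, with short bars at the group means. The H+H+Cd points of Fam71a, Fam71d and Fam71e2 are all above the H+Cd points, and those of Fam71f2 and Fam71b overlap them.

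Among the genes that handle GDP-bound Rabs, Gdi2, the abundant GDP dissociation inhibitor, had 95.8, 78.1 and 81.2 FPKM in H+Cd and 72.4, 40.8 and 68.2 FPKM in H+H+Cd. The groups did not overlap (log2 fold change −0.52, SE 0.22, limma adjusted p = 0.431), and without H+H+Cd replicate 2, the lowest library, the log2 fold change was −0.27. Chml, an escort protein for newly made Rabs, had 0.682 to 2.75 and 2.21 to 6.79 FPKM, and Chm 0.880 to 0.952 and 0.739 to 1.01 FPKM, both with overlap. For the lipid tail, the transferase subunit Rabggta had 5.65 to 6.16 FPKM in H+Cd and 4.69 to 5.23 FPKM in H+H+Cd without overlap (adjusted p = 0.394), whereas Rabggtb and Ptar1 overlapped.

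Of the 50 exchange factor genes tested, 2 had an unadjusted p under 0.05, one in each direction, beside 11.9% of all tested genes. Rab3il1, the most abundant, had 85.3 to 94.1 FPKM in H+Cd and 98.0 to 102.7 FPKM in H+H+Cd (limma adjusted p = 0.390). Trappc1, a core subunit of the TRAPP complexes that switch on Rab1, had 16.4 to 19.7 and 12.3 to 15.8 FPKM (adjusted p = 0.374). Hps4, whose complex acts on Rab32 and Rab38, had 7.28 to 9.89 and 6.61 to 6.77 FPKM, and Dennd4a, which acts on Rab10, overlapped.

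Of the 35 GAP genes tested, 5 had an unadjusted p under 0.05, 4 lower and 1 higher in H+H+Cd, beside 11.9% of all tested genes, 6.59% lower and 5.31% higher. Tbc1d20, a GAP of Rab1 whose loss in mice disturbs the acrosome, had 35.5, 40.7 and 63.8 FPKM in H+Cd and 26.6, 31.2 and 18.3 FPKM in H+H+Cd (log2 fold change −0.84, SE 0.27, limma adjusted p = 0.378). Sgsm3 had 9.08 to 9.74 and 5.34 to 6.95 FPKM (adjusted p = 0.338), Tbc1d13, a GAP of Rab35, 4.54 to 4.74 and 3.78 to 3.87 FPKM, and Tbc1d22a 7.16 to 8.20 and 5.88 to 6.80 FPKM. Tbc1d15, a GAP of Rab7 and the most abundant of the list, had 45.4 ± 2.03 and 44.7 ± 2.13 FPKM (SD, n = 3).

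Of the 58 effector and partner genes tested, 7 had an unadjusted p under 0.05 in limma, 5 lower and 2 higher in H+H+Cd. This stands beside 11.9% of all tested genes, 6.59% lower and 5.31% higher. Rabac1, which binds prenylated Rabs at the Golgi, had 13.0, 14.8 and 18.8 FPKM in H+Cd and 9.78, 9.37 and 9.26 FPKM in H+H+Cd (log2 fold change −0.64, SE 0.13, limma adjusted p = 0.338). The Golgi membrane proteins Yipf4 and Yipf5 had 25.8 to 30.0 and 29.0 to 30.7 FPKM in H+Cd and 20.6 to 21.9 and 23.0 to 26.4 FPKM in H+H+Cd. Optn, a partner of Rab8, was higher, at 45.8 to 48.3 FPKM in H+Cd and 53.2 to 61.4 FPKM in H+H+Cd (adjusted p = 0.343). Tmf1, a Golgi partner of Rab6 needed for the acrosome in mice and the most abundant of the list, had 72.3 ± 3.31 and 72.6 ± 6.30 FPKM (SD, n = 3).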

How the data were processed

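RNA of 6 testes was measured, in groups taken from the sample labels. Poly(A) selection and a stranded kit were used, and the authors ran StringTie and Ballgown against known transcripts, per the methods of the study. The deposited values are transcript FPKM. The submitters' processing notes name the build mm10. Which aligner and tool versions were used, and whether strand entered the counting, is not given in the sources used here, so overlapping antisense genes are not separable. Identifiers were matched without version to GENCODE M21 (27018 of 27120) and FPKM were summed per gene over the listed transcripts. The depth is unknown, so no counting interval was computed.

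The filter kept features whose mean exceeded 0.5 FPKM in either group. Tests ran on log2(FPKM + 1), which understates changes of low genes, with limma 3.58.1 in R 4.3.3 (variance trend, two-sided, group as factor) and Benjamini-Hochberg adjustment over 13769 genes or 25322 transcripts. Paralog ratios used exact permutation tests, and coding sequences were aligned with Biopython 1.88. The code was tested on simulated data. Alternatives covered pseudocount, filter, scaling, block, test and each library left out. Library values were printed for Rab genes without overlap and with an unadjusted p under 0.05, the 6 most abundant, pairs with a separated ratio, Rab2a and Rab2b, and, of each regulator list, the most abundant member and up to 4 of smallest p. A gene that this rule names is not reported here. Other Rab genes with values, and the Rab4a, Rab24, Rab40c, Rab6a, Rab28, Rab7, Rab11a and Rab33b transcripts, were named after their values were seen. So were Fam71f1, Prelid1, Mpv17l2, Pp2d1 and Mrpl48. The members, lists and tests were chosen with earlier results of these data known. Tables were prepared with Python 3.11.15.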

Additional observations from a re-analysis of the deposited data

How the results depend on the processing

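The count of Rab genes past the adjusted threshold stayed at 0 under all 15 alternatives, and the count at the thresholds of the study at 2 to 3 when each library was left out, where 3.20% to 8.31% of all tested genes met them. Rab transcripts past the threshold numbered 0, and 1 with a pseudocount of 0.1, a stricter filter (mean over 1 FPKM), median-ratio rescaling or quantile normalization. This was the 8-exon Rab2b transcript (log2 fold changes of −1.45, −1.21, −1.20 and −1.21, adjusted p of 0.0467, 0.0432, 0.0494 and 0.0472), whose adjusted p was 0.0902 to 0.173 with each library left out. The cause was not tested. Rab genes with a lower mean log2 value numbered 24, and 22 to 29 with a library left out. Rab genes without overlap numbered 9, and 10 to 17 with a library left out (17 without H+Cd replicate 1), where the share over all tested genes was 27.1% to 37.2%, against 19.4% with all libraries. The log2 fold change of Rab1b ran from −0.074 to 0.034 and was 0.02 without H+Cd replicate 3 and 0.034 without H+H+Cd replicate 3. That of Rab33b ran from −1.47 (without H+H+Cd replicate 3) to −0.75 (without H+H+Cd replicate 1), and the adjusted p of Rab2b from 0.117 to 0.608 over all alternatives. Rescaling moved the median over all genes to 0.006 and −0.01. Same-numbered libraries did not deviate together (correlations of −0.08, 0.008 and −0.17), and differently numbered ones had correlations of −0.08 to 0.15. With 3 libraries in each group, these correlations cannot settle whether the numbers pair the libraries. With the replicate number as a block, 0 Rab genes and 0 Rab transcripts passed (Rab2b −0.81, adjusted p = 0.608), and the 8-exon transcript had an adjusted p of 0.568. The unknown depth limits what can be said of Rab6b and Rab27a, under 1 FPKM.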

Other observations

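Outside the naming rule of the Rab family, 6 Rab-like genes were measured, and the groups overlapped for all 6. Ift22 and Ift27, small GTPases carried by the intraflagellar transport trains that build the sperm tail, had 32.1 ± 3.90 and 20.7 ± 2.27 FPKM in H+Cd and 32.3 ± 5.77 and 21.6 ± 0.950 FPKM in H+H+Cd (SD, n = 3). Rabl2, a ciliary Rab-like protein, had 9.78, 25.8 and 37.1 FPKM in H+Cd and 12.5, 9.51 and 12.8 FPKM in H+H+Cd (limma adjusted p = 0.504), so its spread lay within H+Cd. Rabl6 had 13.3 to 13.7 and 13.6 to 16.8 FPKM, and Rasef 11.4 to 16.9 and 10.6 to 12.5 FPKM.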
